A study of Mus musculus with 2 samples.

Results

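Genes of glycolysis and of the response to low oxygen were examined in epidermal keratinocytes of mice. The set held 40 genes, fixed by name as 16 glycolytic enzymes, 3 transporters of glucose or lactate, 5 regulators of glycolytic flux, 4 genes of oxygen sensing and 12 targets of the hypoxia-inducible factors (HIF) outside glycolysis. Of these, 37 were among the 17871 genes on the array, 33 by the symbol printed in the annotation and 4 (Gapdh, Ldha, Pfkfb4 and Higd1a) by Entrez number or RefSeq accession under an older symbol. No probe was found for Gpi1, Ldhb and Ankrd37.

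The keratinocytes labelled VDR KO had genotype VDR fl/fl with a Cre recombinase driven by K14, the promoter of a keratin gene of basal epidermal and outer follicle cells, so deletion is limited to these cells and their descendants. The keratinocytes labelled VDR CON were from VDR fl/fl littermates without the recombinase. All mice carried the floxed alleles, were 3 months old and were kept on a low calcium diet. Each group was 1 array hybridised with RNA from 3 mice, so there was no spread between replicates, no test was possible, and every difference is a description of 2 arrays, called VDR KO and VDR CON after their labels. The series title sets the comparison within work on the vitamin D receptor (VDR) in epidermal stem cells and wound healing, and neither sample label mentions a wound.

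Glycolysis breaks glucose down to pyruvate in the cytosol, and lactate dehydrogenase turns pyruvate into lactate when mitochondria do not take it up. HIF is a pair of transcription factor subunits whose alpha subunit is hydroxylated by prolyl hydroxylases (the Egln genes) while oxygen is present, then bound by the von Hippel-Lindau protein and degraded. When oxygen falls, the alpha subunit persists and activates genes of glucose uptake, glycolysis, pH control and blood vessel growth, and the epidermis, which has no vessels of its own, is known as a mildly hypoxic tissue.

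HIF binds DNA at a core of RCGTG, where R is A or G. Only the ACGTG form was searched, and it alone is called the core below. The 250 bases upstream of the annotated start sites were searched for ACGTG or its reverse complement CACGT, where a CACGTG holds both. A GCGTG was neither counted nor marked, so a window without the core may still hold that form. RefSeq promoters (GRCm38.p6) were given for 38 of the 40 members, with no entry for Epas1 and Ndrg1. The core was present upstream of 26 of 53 member start sites (49.1%), against 5444 of 32851 start sites of all genes (16.6%), a description that takes no account of base composition. By role, it stood at 8 of 12 start sites of HIF targets (66.7%), 9 of 27 of glycolytic enzymes (33.3%) and 3 of 3 of the oxygen-sensing genes. It also stood at 3 of 3 start sites of the transporters and 3 of 8 of the flux regulators (37.5%). The stretches below are shown because they belong to the members with the largest differences between the arrays (Car12, Vegfa, Egln3), to a well known hypoxia marker (Car9), and to glycolytic genes (Hk2, Slc2a1, Ldha). Each is written 5′ to 3′ on the gene's strand and lies upstream of a start site, with the core in capitals.
Car12, chr9:66713626-66713685 (+): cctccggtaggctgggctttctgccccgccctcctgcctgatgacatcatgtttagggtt
Vegfa, chr17:46025362-46025391 (-): gccctggagtgcgtgccCACGTcagagagc
Egln3, chr12:54204065-54204124 (-): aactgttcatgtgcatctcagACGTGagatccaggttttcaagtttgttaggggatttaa
Car9, chr4:43506976-43507025 (+): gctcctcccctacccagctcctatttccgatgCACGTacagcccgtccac
Hk2, chr6:82774475-82774534 (-): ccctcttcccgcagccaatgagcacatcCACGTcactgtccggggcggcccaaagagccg
Slc2a1, chr4:119108680-119108739 (+): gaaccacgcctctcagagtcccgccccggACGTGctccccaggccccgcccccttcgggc
Ldha, chr7:46845654-46845783 (+): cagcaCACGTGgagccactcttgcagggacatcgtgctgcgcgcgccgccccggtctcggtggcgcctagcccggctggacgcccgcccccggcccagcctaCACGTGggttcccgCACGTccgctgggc
The Vegfa stretch belongs to the second start site listed, and the window of the first held no core. Car12 had no core in its window. The Ldha window held 5 matches, of which 4 were the overlapping pairs within CACGTG at 145 and 48 bases upstream. A match is a string of letters and not a binding site, and a window without one says nothing of the factor.

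Each value given as a signal is the deposited normalized bead intensity on a linear scale, with its background kept. Each difference is the log2 value on the array labelled VDR KO minus that on the array labelled VDR CON after the background had been removed, which widens the differences of dim genes, so the deposited signals of both arrays are printed beside each difference, and the fold between them is given for the larger ones. Detection was judged by signal rank, with detected probes lying above percentile 52.8 of all probes on the array labelled VDR KO and above percentile 53.4 on the array labelled VDR CON. In all, 32 of the 37 members were detected on at least 1 array, 28 of them on both.

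Across the series, 12147 probes were detected on the array labelled VDR KO and 11994 on the array labelled VDR CON. The probes for Vdr, the targeted gene, had signals of 2928.3, 1871.6 and 382.3 on the array labelled VDR KO, against 2626.3, 1623.7 and 286.2 on the array labelled VDR CON. Vdr was thus not lower by any of these probes. A probe outside the deleted part checks nothing, but the deleted part was not given and the probe positions were not checked. Whether these probes could show the deletion is therefore not known. All directions here rest on the labels as given. Sex-linked transcripts differed as well: Xist, made by the inactive X chromosome, was 2.22-fold higher in VDR KO (1943.3 in VDR KO and 994.1 in VDR CON), and the Y-linked Ddx3y was 7.87-fold lower (258.1 in VDR KO and 924.8 in VDR CON). Kdm5d, also Y-linked, was 2.36-fold lower (180.0 in VDR KO and 258.8 in VDR CON). In the deposited intensities these folds were 1.95 for Xist, 3.58 for Ddx3y and 1.44 for Kdm5d. With 1 pool per group, the sex of the pooled mice and their genotype cannot be told apart in any result below. The part of sex was not tested. All 7 keratinocyte markers were detected, with summed signals of 112700.4 on the array labelled VDR KO and 112352.0 on the array labelled VDR CON. Langerhans and myeloid markers (6 of 7 on the array detected) summed to 8035.4 in VDR KO and 4763.6 in VDR CON, melanocyte markers (5 of 7) to 1048.7 in VDR KO and 1817.8 in VDR CON, and fibroblast markers (4 of 8) to 1632.0 in VDR KO and 2402.6 in VDR CON. Single members were Cd207 of Langerhans cells (839.2 in VDR KO and 517.0 in VDR CON), Dct of melanocytes (182.4 in VDR KO and 619.5 in VDR CON) and Dcn of fibroblasts (181.1 in VDR KO and 348.4 in VDR CON). Dct and Dcn had the largest differences of their lists. All detected members of these lists went in the direction of their sum. Of those detected on neither array, Mitf (0.41), Col3a1 (0.18) and Lyz2 (-0.14) went the other way, and Tyr, Col1a2, Lum and Pdgfra did not. Endothelial markers (4 of 9, of which 0 on both arrays) summed to 1458.8 in VDR KO and 1490.3 in VDR CON, skeletal muscle markers (2 of 9) to 1487.4 in VDR KO and 1556.4 in VDR CON, and stress genes of cell isolation (9 of 9) to 124645.4 in VDR KO and 125738.9 in VDR CON. Each sum took in all markers of the list on the array, detected or not, with the background kept. In lists of dim markers the background thus makes up much of the sum and narrows the difference. These sums stand beside every result below, and their part in the results was not tested. In such bulk RNA, fewer cells of a type and less RNA per cell cannot be told apart.

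Among the 40 genes, the largest differences lay in a few HIF-linked genes, and those of the glycolytic enzymes were smaller. Car12 and Vegfa were over 2-fold higher in VDR KO and Egln3 was 1.81-fold higher, and no detected member was 1.5-fold lower. The 2-fold count of 2 of 32 detected members stands beside 1.28% of 9540 detected genes that were 2-fold higher (1.11% were 2-fold lower). At 1.5-fold, 3 of 32 members were higher, against 4.97% of all detected genes, and 0 were lower, against 4.11%. In the deposited intensities the same 3 members were at least 1.5-fold higher, where 1.36% of all detected genes were, and 0 were lower, against 0.891%. In sign, 25 members lay above 0 and 7 below, whereas 4650 of all detected genes lay above 0 and 4793 below. The 25 took in Tpi1, whose probes disagreed in direction, and Car9 and Higd1a, detected on 1 array only. The 7 took in Pgk1 and Slc16a3, also detected on 1 array only. The median difference was 0.22 over the detected members (0.20 with bounds for genes detected on 1 array, 0.16 in the deposited intensities) and 0.00 over all detected genes.

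**Figure D1:**
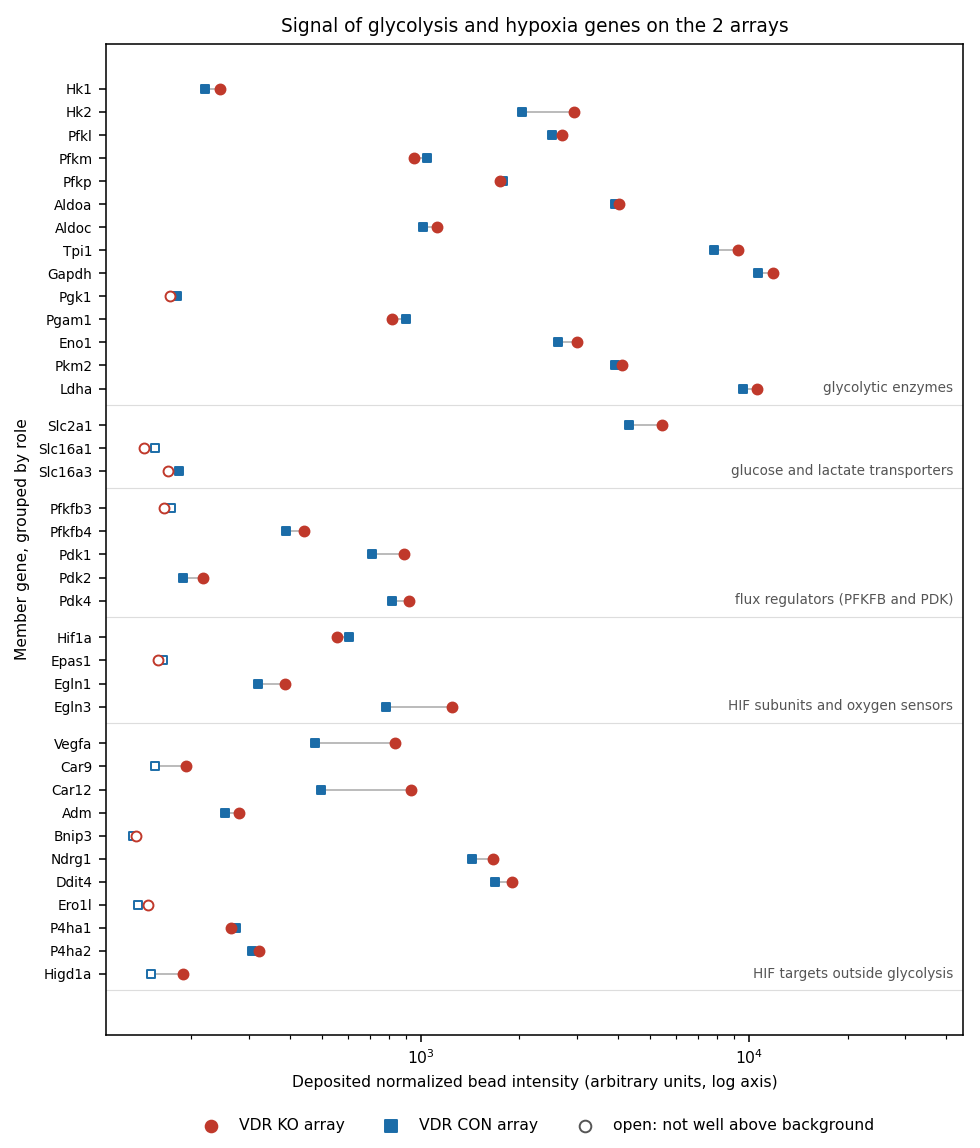
Deposited normalized bead intensity (arbitrary units, log axis) of the 37 members on the array, 1 gene per row grouped by role, with circles for the array labelled VDR KO and squares for the array labelled VDR CON, 1 array each. Vegfa, Car12 and Egln3 show the widest gaps among members filled on both arrays, with VDR KO to the right, and most glycolytic enzymes show circles and squares close together.

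Car12, which encodes a membrane carbonic anhydrase that hydrates carbon dioxide outside the cell and helps to remove acid, had the largest difference of the set. Its signal was 934.7 on the array labelled VDR KO and 498.5 on the array labelled VDR CON. That is a log2 difference of 1.29 (2.44-fold), or 1.88-fold in the deposited intensities, at rank 54 of 9540 detected genes ordered from the largest upward difference. Car12 had 1 probe, so no other probe of the gene bears on the value.

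Vegfa, the vascular endothelial growth factor that drives vessel growth, had a signal of 833.4 on the array labelled VDR KO and 475.3 on the array labelled VDR CON. The log2 difference was 1.18 (2.27-fold, 1.75-fold in the deposited intensities), at rank 74 of 9540. Its other detected probe gave 534.2 in VDR KO and 326.5 in VDR CON, with a log2 difference of 1.19, and its remaining probe was detected on neither array (140.5 in VDR KO and 140.4 in VDR CON). The detected probes of Vegfa thus gave close differences, also in the deposited intensities (0.81 and 0.71).

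The remaining HIF targets outside glycolysis that were detected on both arrays lay within 1.5-fold. Adm, the peptide adrenomedullin that widens vessels, had 279.4 in VDR KO and 252.7 in VDR CON (0.30). Ndrg1, a stress-induced gene of differentiating epithelia, had 1666.7 in VDR KO and 1432.2 in VDR CON (0.25). A further Ndrg1 probe, filed under an older symbol, had 2331.6 in VDR KO and 2249.0 in VDR CON, a difference of 0.05. Ddit4, an inhibitor of the growth kinase mTORC1, had 1899.4 in VDR KO and 1683.6 in VDR CON (0.20). The collagen prolyl 4-hydroxylase subunits, which HIF induces for matrix assembly, had differences near 0 in opposite directions. P4ha1 had 263.9 in VDR KO and 273.9 in VDR CON (-0.12), and P4ha2 had 320.5 in VDR KO and 305.3 in VDR CON (0.13).

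Dim HIF targets could be given only as bounds or not at all. Car9, the carbonic anhydrase most used as a hypoxia marker, was detected on the array labelled VDR KO alone, with 193.1 in VDR KO and 155.5 in VDR CON, at least 1.21-fold higher after background removal. Its other probes were detected on neither array. Higd1a, a mitochondrial protein of the hypoxia response, had 188.4 in VDR KO and 150.4 in VDR CON, at least 1.13-fold higher after background removal. The lower bounds set the bright value against the lowest normalized value of a detected probe on the dim array, and in the deposited intensities they were 1.08 for Car9 and 1.06 for Higd1a. Bnip3, a mitophagy receptor (135.5 in VDR KO and 133.1 in VDR CON), and Ero1l, an oxidase of protein folding (147.4 in VDR KO and 138.0 in VDR CON), were detected on neither array.

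Within the oxygen-sensing machinery, the hydroxylases Egln3 and Egln1 were higher on the array labelled VDR KO and Hif1a was not. Egln2, a hydroxylase gene outside the 40, had nearly equal signals of 276.3 in VDR KO and 271.0 in VDR CON (0.06). Arnt, which encodes the partner of the alpha subunit and is likewise outside the 40, had 306.4 in VDR KO and 371.1 in VDR CON. That is a difference of -0.50 (1.42-fold lower, but 1.21-fold in the deposited intensities), as large as that of Egln1 in the opposite direction. Egln3, a prolyl hydroxylase that is itself induced by HIF, had 1248.4 in VDR KO and 782.3 in VDR CON, a log2 difference of 0.85 (1.81-fold, 1.6-fold in the deposited intensities), at rank 189 of 9540. Its other probe was detected on neither array. Egln1, the main oxygen-sensing hydroxylase, had 387.0 in VDR KO and 318.3 in VDR CON (0.50, 1.41-fold, but 1.22-fold in the deposited intensities). Its further probes gave 0.25 and 0.50, so 3 probes agreed in direction and lay within 1.5-fold. Hif1a, the HIF-1 alpha subunit, which is regulated mainly through protein stability, had 554.1 in VDR KO and 603.9 in VDR CON (-0.18, 1.13-fold lower). Epas1, which encodes HIF-2 alpha, was detected on neither array by any of its 3 probes (158.5 in VDR KO and 163.8 in VDR CON for the first).

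**Figure D2:**
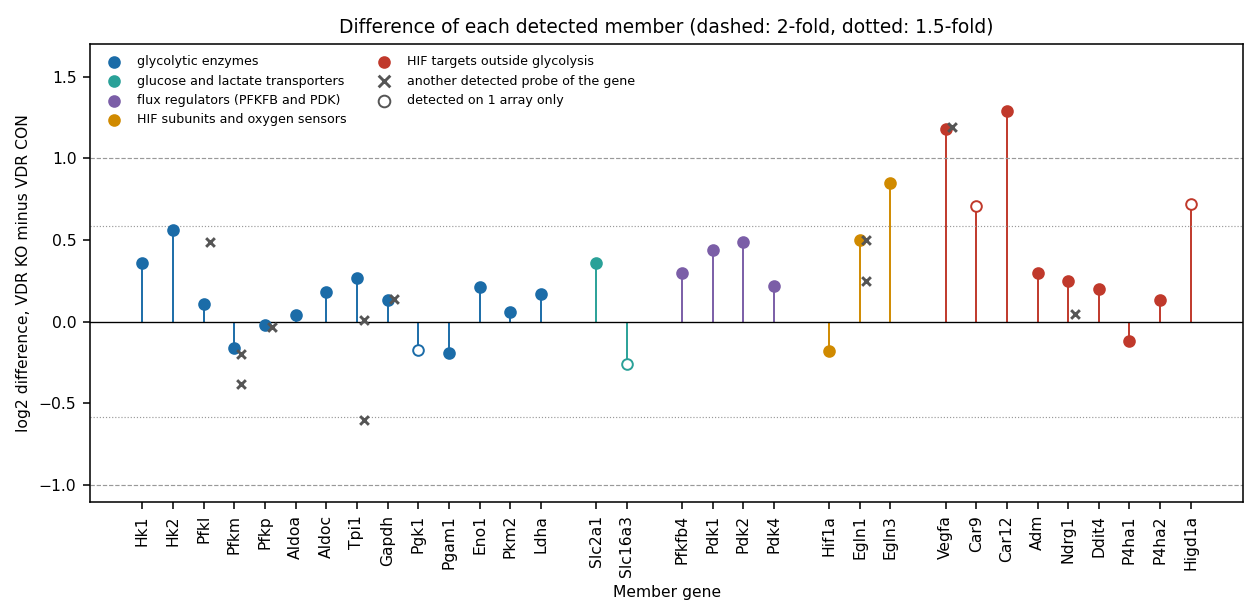
Difference in log2 intensity after background removal (VDR KO minus VDR CON, 1 array each) for the 32 detected members in order of role, with crosses for other detected probes of the same gene and open circles for genes detected on 1 array only. Car12 (1.29) and Vegfa (1.18) lie above the 2-fold line, Egln3 (0.85) above the 1.5-fold line, and the open circles of Car9 and Higd1a are fitted values whose bounds were 1.21-fold and 1.13-fold.

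The glycolytic enzymes had a median difference of 0.12 over 14 detected genes, with 0 at 1.5-fold in either direction. Hk2, the inducible hexokinase that phosphorylates glucose on entry, had the largest difference, with 2930.2 in VDR KO and 2036.0 in VDR CON (0.56, 1.47-fold, and 1.44-fold in the deposited intensities). The housekeeping hexokinase Hk1 had 244.6 in VDR KO and 220.4 in VDR CON (0.36, 1.29-fold, but 1.11-fold in the deposited intensities). Hk2 thus stood above the other enzymes under both scales, and Hk1 after background removal only.

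Phosphofructokinase, the committed step of the pathway, had small differences in all of its subunits. Pfkl had 2702.9 in VDR KO and 2520.3 in VDR CON (0.11), Pfkp had 1749.9 in VDR KO and 1779.8 in VDR CON (-0.02), and Pfkm had 954.0 in VDR KO and 1044.1 in VDR CON (-0.16). Other probes gave -0.20 and -0.38 for Pfkm, -0.03 for Pfkp and 0.49 for Pfkl, of which the probes at -0.38 and 0.49 were detected on 1 array.

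Aldolase splits the phosphorylated hexose. Aldoa had 4015.8 in VDR KO and 3909.3 in VDR CON (0.04), and Aldoc had 1120.7 in VDR KO and 1013.6 in VDR CON (0.18). Tpi1, which interconverts the resulting trioses, had 9248.4 in VDR KO and 7820.9 in VDR CON (0.27). Its 3 probes disagreed, however, since the others gave 0.01 (3172.2 in VDR KO and 3153.4 in VDR CON) and -0.60 (317.2 in VDR KO and 402.8 in VDR CON), so no direction could be given for Tpi1.

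In the lower part of the pathway, which yields ATP and pyruvate, the values again lay close together. Gapdh, the triose phosphate dehydrogenase, had 11840.4 in VDR KO and 10633.1 in VDR CON (0.13), and its second probe gave 0.14. Eno1, the main enolase, had 2993.4 in VDR KO and 2613.0 in VDR CON (0.21). Pgam1, a phosphoglycerate mutase, was on the other side of 0 with 819.7 in VDR KO and 904.6 in VDR CON (-0.19). Pkm2, which stands for pyruvate kinase on this array, had 4093.2 in VDR KO and 3911.8 in VDR CON (0.06), and its name does not separate the M1 and M2 isoforms here. Ldha, which makes lactate, had 10575.4 in VDR KO and 9610.2 in VDR CON (0.17). The probe of Pgk1, the phosphoglycerate kinase, lay at the detection limit with 171.8 in VDR KO and 180.7 in VDR CON. It was detected in VDR CON alone, lower in VDR KO by at least 1.06-fold after background removal and by at least 1.02-fold in the deposited intensities.

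Among the transporters, Slc2a1, the main glucose carrier GLUT1 of keratinocytes, had 5450.5 in VDR KO and 4310.5 in VDR CON (0.36, 1.28-fold). The monocarboxylate carriers that move lactate were at or below the detection limit. Slc16a1 had 143.1 in VDR KO and 154.9 in VDR CON and was detected on neither array. Slc16a3 had 170.0 in VDR KO and 183.7 in VDR CON and was detected in VDR CON alone. By this probe it was lower in VDR KO by at least 1.1-fold after background removal and by at least 1.04-fold in the deposited intensities. The other Slc16a3 probes were detected on neither array and differed in sign, with 0.37 (168.4 in VDR KO and 148.7 in VDR CON) and -0.15.

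The detected regulators of flux were all above 0 and within 1.5-fold, with a median of 0.37 over 4 genes, or 0.19 in the deposited intensities. Pyruvate dehydrogenase kinases hold pyruvate back from the mitochondria. Pdk1, the HIF-induced kinase, had 886.5 in VDR KO and 709.4 in VDR CON (0.44, 1.36-fold). Pdk4, which responds to fasting and fatty acids, had 924.1 in VDR KO and 819.5 in VDR CON (0.22). Pdk2 had 217.3 in VDR KO and 188.6 in VDR CON (0.49, but 1.15-fold in the deposited intensities). The PFKFB enzymes set the level of the activator of phosphofructokinase, and here Pfkfb4 had 440.8 in VDR KO and 389.2 in VDR CON (0.30), while Pfkfb3 was detected on neither array (165.6 in VDR KO and 174.0 in VDR CON).

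Set side by side, the HIF targets outside glycolysis had a median difference of 0.30 over 9 detected genes and the glycolytic enzymes 0.12 over 14. The gap between the medians was -0.18 (enzymes minus HIF targets), and with no replicates it could not be tested. Counting only genes detected on both arrays, the medians were 0.25 for 7 HIF targets and 0.13 for 13 enzymes. In the deposited intensities they were 0.22 and 0.12, in the same order. Apart from Car12 and Vegfa, the HIF targets detected on both arrays spanned -0.12 to 0.30, inside the span of the enzymes (-0.19 to 0.56). HIF targets and oxygen-sensing genes together had a median of 0.40 over 12 detected genes, or 0.26 with bounds.

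The size of a difference depends on signal, so members were also placed among genes of like signal. The 8393 genes detected on both arrays were divided into 20 bins of at least 419 genes by mean signal, and the central 95% of the differences in each bin was taken as a description. Of 28 members, 3 lay above this range, 25 inside and 0 below. For Car12 the range was -0.54 to 0.70, for Vegfa it was -0.77 to 0.67 and for Egln3 it was -0.50 to 0.55, all under their own values. Hk2 lay inside, with 0.56 against an upper limit of 0.63, as did Slc2a1, with 0.36 against 0.46, and Egln1, with 0.50 against 0.90. The members were named for their pathway with earlier results of these arrays known, so these places are not a test.

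**Figure D3:**
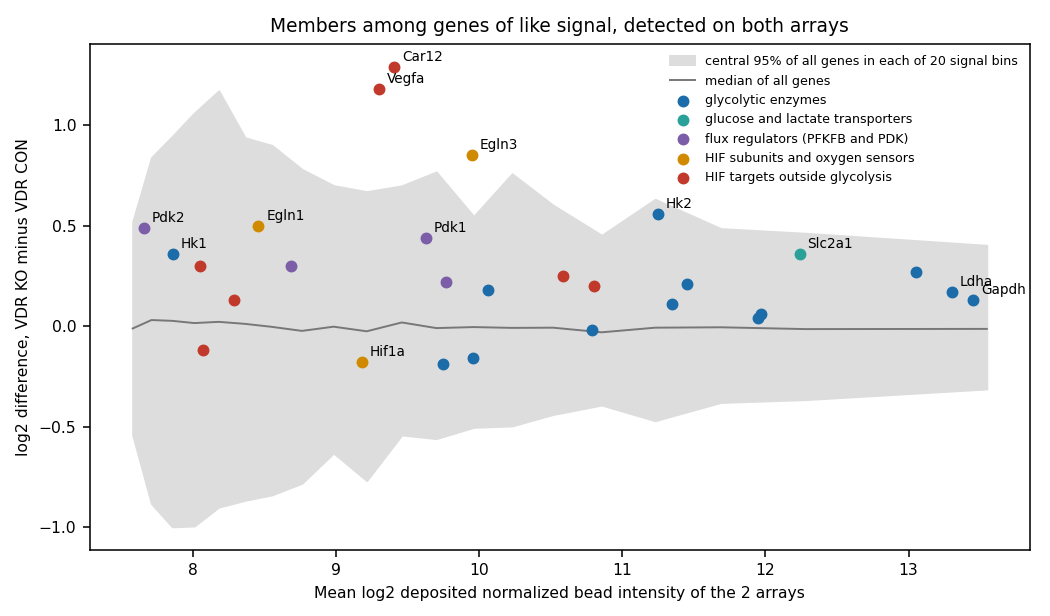
Log2 difference (VDR KO minus VDR CON, 1 array each) against the mean log2 deposited intensity for the 28 members detected on both arrays, coloured by role, over the central 95% (grey) and the median (line) of all genes detected on both arrays in 20 bins of signal. Car12, Vegfa and Egln3 lie above the grey band, and the other 25 members lie inside it.

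The wider pathway, taken from lists that went beyond the 40 genes, lay on both sides of 0. At 1.5-fold, 4.97% of all detected genes were higher in VDR KO and 4.11% were lower. The counts in these lists and in the neighbouring pathways below stand beside those shares, and 1 gene in a short list does not set it apart. Of 19 other glycolysis genes, 7 were detected, 1 was at least 1.5-fold higher and 0 were lower, with a median of 0.15. The neuronal enolase gene Eno2 had 282.2 in VDR KO and 210.1 in VDR CON (0.96, 1.95-fold, but 1.34-fold in the deposited intensities), and Pdk3, another pyruvate dehydrogenase kinase, had 487.4 in VDR KO and 580.3 in VDR CON (-0.38).

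Of 28 other genes of oxygen sensing and HIF response, 18 were detected, 0 were at least 1.5-fold higher and 1 was lower, with a median of 0.09. The lower gene was Angptl4, a lipase inhibitor induced both by hypoxia and by PPAR receptors, with 1139.8 in VDR KO and 1985.9 in VDR CON (-0.94, 1.92-fold lower, 1.74-fold in the deposited intensities). Loxl2, a matrix cross-linking oxidase, was detected on the array labelled VDR CON alone, at least 1.15-fold lower in VDR KO (151.0 in VDR KO and 187.3 in VDR CON). In sign, 10 of the 18 detected genes lay above 0 and 8 below. The largest upward difference, named after its value was seen, was that of the cyclin G gene Ccng2, with 391.9 in VDR KO and 314.0 in VDR CON (0.57, 1.48-fold, but 1.25-fold in the deposited intensities). Genes of the HIF response thus lay on both sides of 0.

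Neighbouring pathways had medians slightly below 0. Genes of pyruvate dehydrogenase and the citric acid cycle had a median of -0.02 over 19 detected genes, with 1 at 1.5-fold higher and 0 lower. That gene was Dld, a subunit shared by pyruvate dehydrogenase and related complexes (257.0 in VDR KO and 209.6 in VDR CON, 0.69, but 1.23-fold in the deposited intensities). Sdhd, a membrane anchor of succinate dehydrogenase, was detected on the array labelled VDR KO alone, at least 1.17-fold higher (190.5 in VDR KO and 162.6 in VDR CON). Genes of the pentose phosphate pathway and glycogen had a median of -0.09 over 10 detected genes, with 1 at 1.5-fold higher and 0 lower. Pgm1, a phosphoglucomutase between glycogen and glycolysis, had 477.7 in VDR KO and 342.1 in VDR CON (0.81), and the glycogen phosphorylase gene Pygl had 1388.6 in VDR KO and 1086.2 in VDR CON (0.44).

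**Figure D4:**
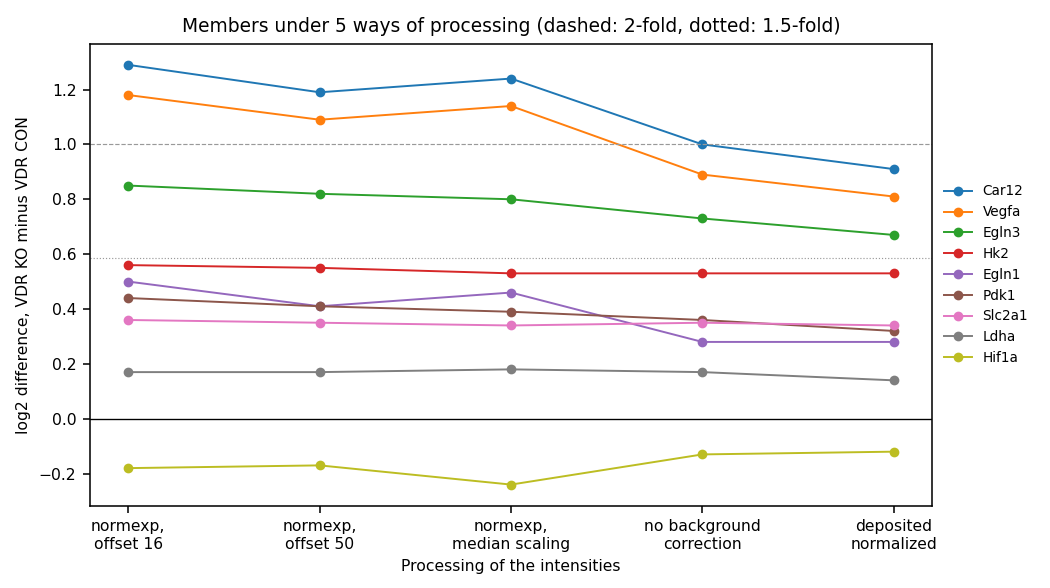
Log2 difference (VDR KO minus VDR CON, 1 array each) of 9 members under 5 ways of processing the intensities, from background removal at the left to background kept at the right. Car12 runs between 0.91 and 1.29 and Vegfa between 0.81 and 1.18, with Vegfa under the 2-fold line and Car12 at or under it where the background is kept, and Hk2 stays between 0.53 and 0.56.

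Keeping the background lowered the differences of dim genes most. Pdk2, for instance, was 1.41-fold higher after background removal and 1.15-fold higher in the deposited intensities. Car12 was 1.88-fold and Vegfa 1.75-fold higher in the deposited intensities, so both missed 2-fold there, where 0.283% of all detected genes were 2-fold higher. The plot of 9 members under the ways of processing shows that their order from Car12 down to Hk2 was the same in each.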

How the data were processed

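RNA of skin keratinocytes, isolated after 0.25% trypsin, was hybridised to 2 Illumina arrays, 1 per group, each a pool of 3 mice per the design text. The number of arrays limits the precision. The deposited non-normalized table gives average bead intensity for 25697 probes, with GenomeStudio 2011.1 as the software named per the submitters' processing notes. The authors' normalized intensities share 1 distribution (to within 0.3 units), by a method not given in the sources used here, and the deposited value table of the series was identical to them. The deposited detection p-values did not follow the rows (Spearman's rho with signal -0.0073 for VDR KO and -0.0053 for VDR CON), so they were reassigned by signal rank and detection meant p under 0.05.

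Non-normalized intensities were corrected with normexp in limma 3.58.1 (R 4.3.3, offset 16, fitted through these p-values), then quantile normalized and taken to log2. The script was tested on simulated data. In all, 25376 probes were matched to genes of GRCm38.p6 and 321 kept the symbol of the file. Among several probes of a gene, the one brightest on average in the deposited table was used, for members among probes carrying their symbol. Signals are given for the 37 members on the array, and from each further list the 2 detected genes with the largest difference are named. Arnt, Ccng2 and Egln2 are named besides, after their values were seen. Members and lists were chosen with earlier results of these data known.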

Additional observations from a re-analysis of the deposited data

How the results depend on the processing

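No paired analysis was possible because each group held 1 array, and for the same reason the chip could not be used as a block and no replicate could be left out. An alternative was counted as moving a value when it shifted a median or difference by over 0.23, the SD between the brightest detected probes of a gene over 2097 genes, or a count by over 1.5 times. The count of members at least 2-fold higher, 2 with the background removed, was 0 without background correction, 0 in the deposited intensities and 1 with the detection p-values as filed. The count at 1.5-fold, 3, became 5 with no detection filter and 5 with the median over all detected probes of a gene, both of which use fitted values in place of bounds, and 2 with the p-values as filed. The median of the oxygen-sensing genes, 0.50 over 3, was 0.20 with no detection filter and -0.10 with the p-values as filed, settings that change which of the 4 genes count. The other comparisons of counts and medians with an alternative stayed within these limits, the glycolytic enzymes at 0.08 to 0.15 and the HIF targets at 0.20 to 0.46. The gap between them ran from -0.30 to -0.08. The ends at 0.15, 0.46 and -0.30 came from the p-values as filed, which did not follow the rows. Without that setting the gap ran from -0.20 to -0.08. Matching members by array symbol alone was an alternative chosen after seeing the data. Low signal over background limits Car9, Higd1a, Pgk1 and Slc16a3.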
